A study of Mus musculus with 3 samples.

Results

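The CD4 T cell TCR beta repertoire described here is the set of rearranged TCR beta sequences read from the CD4 library of a lupus-prone MRL.lpr mouse. Its members were all clonotypes of that library whose best matching V gene was a TRBV gene and whose best matching J gene was a TRBJ gene. There were 44807 such clonotypes with 133667 reads, out of 44891 clonotypes and 133770 reads of all chains in the CD4 library and 168230 clonotypes and 479121 reads in the 3 libraries of the series. A clonotype is a distinct nucleotide sequence of the CDR3, the loop that is encoded where the V, D and J segments are joined. The spleen of 1 mouse, 16 weeks old and carrying the lpr mutation on the MRL background, was sorted into CD4, CD8 and DN (CD4- CD8- double negative) T cells, and the mRNA of 1000000 cells of each subset went into a library of its own, prepared with the Takara SMARTer Mouse TCRa/b profiling kit. The same mouse gave the CD8 library (81212 TCR beta clonotypes, 150874 reads) and the DN library (41948 clonotypes, 194290 reads), which serve as the reference below. The tables hold rearranged TCR sequences and no level of Cd4 or Cd8 mRNA, so the label of the subset could not be checked against its marker, and the sort gates used for this mouse were not given in the sources used here.

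A TCR beta chain is assembled in the thymus by joining a D to a J segment and then a V segment to the joined DJ, while bases are trimmed from and added to the ends, so that each joining event leaves its own junction. V segments carry the CDR1 and CDR2 loops, which mostly touch the MHC molecule, and the CDR3 lies over the peptide. CD4 T cells are selected on class II MHC molecules and CD8 T cells on class I, and a clone keeps its rearrangement as it divides, so that reads per clonotype reflect both clone size and mRNA per cell. In these bulk libraries, more cells of a clone and more TCR mRNA per cell cannot be told apart.

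There was 1 library per subset and therefore no replicate check. Each test below compares 2 libraries, or nonproductive with in-frame clonotypes of the CD4 library, and not 2 conditions. Its units are clonotypes, except for the tests on reads in large clonotypes. The intervals are 95% Wilson intervals, and they cover counting error only, since PCR copies that carry no molecular identifier cannot be counted as separate molecules. At the depth of the CD4 library, 3 counts, the smallest share taken as measurable, correspond to 0.00224% of TCR beta reads and to 0.0067% of clonotypes. The libraries also held clonotypes in common, that is, with an identical nucleotide CDR3 and the same V and J genes. Of the CD4 clonotypes, 3898 (8.70%) were also found in the CD8 library, 3754 (8.38%) in the DN library and 39092 (87.2%) in neither, and results that rest on the shared clonotypes are given with and without them.

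The 10 CD4 clonotypes with the most reads are printed first because they show what a member of the repertoire is. Each line gives the amino acid CDR3, or the genes where the CDR3 was longer or had no reading frame, followed by the nucleotide CDR3 from the deposited table. Lower case marks the bases that match the stretch most clonotypes of the same V gene have at the start or most clonotypes of the same J gene have at the end, and capitals mark the junction bases in between. No germline sequence was used for this split.

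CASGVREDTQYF: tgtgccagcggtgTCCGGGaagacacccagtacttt
TRBV13-2 with TRBJ2-1, 16 residues: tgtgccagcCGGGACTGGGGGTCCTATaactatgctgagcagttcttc
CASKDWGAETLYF: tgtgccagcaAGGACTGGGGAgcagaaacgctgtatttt
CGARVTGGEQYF: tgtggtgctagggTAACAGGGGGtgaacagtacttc
out of frame, TRBV4 with TRBJ2-1: tgctgagcagttcttc
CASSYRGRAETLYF: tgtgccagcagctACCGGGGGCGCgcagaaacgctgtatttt
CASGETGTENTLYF: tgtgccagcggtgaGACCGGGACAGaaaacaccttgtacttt
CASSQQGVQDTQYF: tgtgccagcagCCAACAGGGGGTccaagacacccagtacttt
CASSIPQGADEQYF: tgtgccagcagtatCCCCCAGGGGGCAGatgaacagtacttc
TRBV5 with TRBJ2-1, 17 residues: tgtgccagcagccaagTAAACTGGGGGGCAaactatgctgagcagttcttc

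The largest CD4 clonotype, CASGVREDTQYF, joined TRBV13-2 (Vβ8.2 in the older names) to TRBJ2-5 and had 1484 reads, 1.11% of the library (1.06 to 1.17%). It had 21 reads in the CD8 library and 3 in the DN library. The second, a CDR3 of 16 residues that joined TRBV13-2 to TRBJ2-1 through 18 junction bases, had 1275 reads in CD4 (0.954%) but 5 and 7 in CD8 and DN T cells. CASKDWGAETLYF (TRBV13-3 with TRBJ2-3) had 575 reads in CD4 against 8 in CD8 and 3 in DN T cells, and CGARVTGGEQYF (TRBV20 with TRBJ2-7) had 405 against 3 and 2. These clonotypes were therefore high in the CD4 library and at no more than 21 reads in the others. By contrast, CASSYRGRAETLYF (TRBV4 with TRBJ2-3) had 353 reads in CD4 against 33 and 176 in CD8 and DN T cells.

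The fifth clonotype carried no productive CDR3. Its 16 bases all matched the end of TRBJ2-1, so that no stretch of TRBV4 and no junction could be read in it. It had 357 reads in CD4 against 164 and 323 in CD8 and DN T cells, so that it was abundant in every library. Among the others, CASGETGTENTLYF (TRBV13-2 with TRBJ2-4) had 331, 1 and 2 reads, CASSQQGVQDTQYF (TRBV14 with TRBJ2-5) 330, 7 and 1, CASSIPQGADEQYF (TRBV19 with TRBJ2-7) 293, 0 and 2, and the clonotype of TRBV5 with TRBJ2-1 289, 8 and 8, each in the order CD4, CD8 and DN. For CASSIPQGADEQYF, the share in CD4 was at least 110-fold higher than in CD8 when the CD8 library was set at its floor of 3 reads. The clonotype was chosen for its CD4 reads, so this fold is a description.

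An in-frame CDR3 without a stop codon, which can encode a receptor chain, was present in 41301 CD4 clonotypes (92.2%), and these held 94.8% of reads. The remaining 3506 (7.82%) were nonproductive, 3308 of them out of frame and 198 with a stop codon only. Such sequences can come from the allele whose joining failed in a cell whose other allele succeeded, and they are not displayed at the cell surface. A read error that shifts the frame is counted with them, as is a sequence without a readable V-J join, such as the fifth clonotype above. In-frame CD4 clonotypes had a mean of 3.07 reads and nonproductive ones 1.98 reads. The share of nonproductive clonotypes was 4.89% in the CD8 library and 8.96% in the DN library, so that by clonotypes CD4 T cells lay between them. By reads the nonproductive share was highest in CD4, with 5.18% against 3.74% in CD8 and 4.71% in DN T cells.

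V gene use in CD4 T cells was led by 5 genes. TRBV13-2 (Vβ8.2) held 5652 clonotypes, 12.6% (12.3 to 12.9%), and TRBV13-1 (Vβ8.3) held 5577, 12.4% (12.1 to 12.8%). They were followed by TRBV5 (Vβ1) with 10.7% (10.42 to 10.99%), TRBV20 (Vβ15) with 9.31% (9.04 to 9.58%) and TRBV31 (Vβ14) with 8.97% (8.70 to 9.23%). By reads the same genes held 14.6%, 13.4%, 10.1%, 8.93% and 9.62%, so TRBV31 passed TRBV20. The intervals of TRBV13-2 and TRBV13-1 overlapped, and so did those of TRBV20 and TRBV31, whereas TRBV5 lay apart from both pairs.

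**Figure D1:**
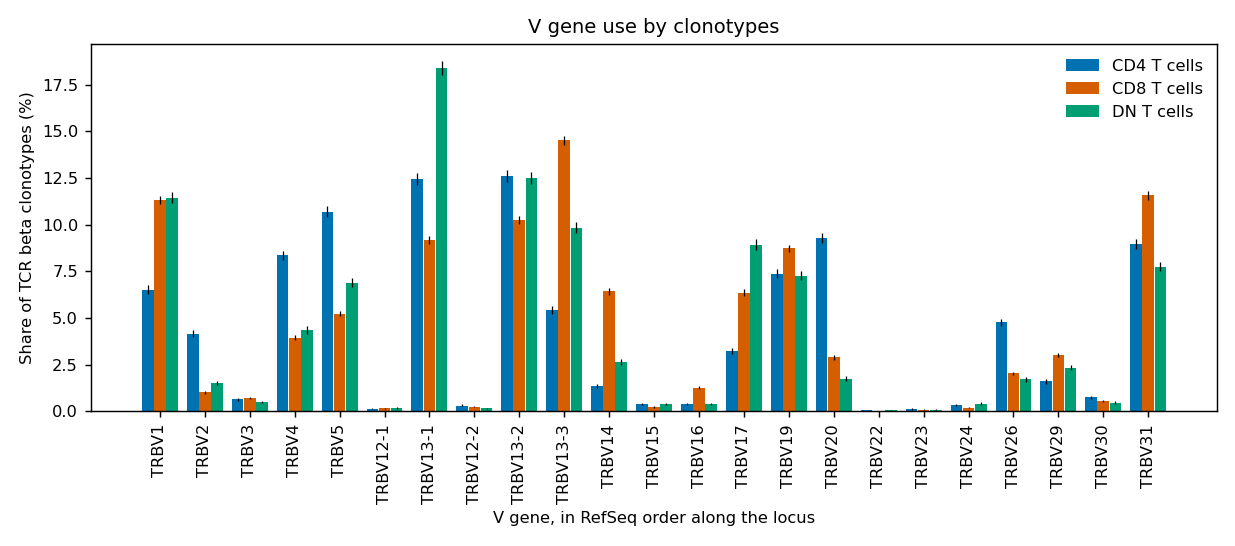
Share of TCR beta clonotypes (%) held by each of the 23 V genes with at least 50 clonotypes in the CD4 and CD8 libraries together, in the order of the RefSeq gene list. Bars are the CD4, CD8 and DN libraries (1 library each) and lines are 95% Wilson intervals. TRBV20 stands at 9.31% in CD4 against 2.89% in CD8 and 1.75% in DN T cells, and TRBV14 at 1.35% against 6.42% and 2.64%.

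Against CD8 T cells, the CD4 library was set apart by a group of V genes that were used more often and another used less often. Of the 23 V genes tested, 14 differed at least 1.5-fold (60.9%), 8 of them higher (34.8%) and 6 lower (26.1%) in CD4, and 19 (82.6%) had an adjusted p under 0.05 in Fisher's exact test with Benjamini-Hochberg adjustment. TRBV2 (Vβ4) held 4.14% of clonotypes in CD4 and 1.02% in CD8 T cells, a ratio of 4.07 (Fisher's exact test, adjusted p = 8.09e-280). TRBV20 held 9.31% and 2.89%, a ratio of 3.22 (same exact test, unadjusted p = 1e-300, the smallest value given here). TRBV26 (Vβ3) held 4.77% and 2.04%, TRBV4 (Vβ10) 8.35% and 3.94%, and TRBV5 10.7% and 5.23%, which correspond to ratios of 2.34, 2.12 and 2.04. These 5 genes were the ones above 1% of clonotypes that were at least 1.5-fold higher in CD4, and together with their DN values below they mark the same direction against both libraries.

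The genes used less in CD4 than in CD8 T cells were TRBV14, TRBV16, TRBV13-3, TRBV17, TRBV29 and TRBV1. TRBV14 (Vβ13) held 1.35% of clonotypes in CD4 and 6.42% in CD8, a ratio of 0.210, and TRBV16 (Vβ11) held 0.402% and 1.27%, a ratio of 0.316. TRBV13-3 (Vβ8.1) held 5.41% and 14.5%, a ratio of 0.373, so that the 3 TRBV13 genes did not move together: TRBV13-1 was 1.36 times and TRBV13-2 1.23 times as frequent in CD4 as in CD8. TRBV17 (Vβ9) had a ratio of 0.505, TRBV29 (Vβ7) of 0.535 and TRBV1 (Vβ2) of 0.576. Each of these 6 genes had an adjusted p of 3.95e-55 or less in Fisher's exact test.

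Against DN T cells, 11 of the 23 V genes differed at least 1.5-fold (47.8%), 7 higher (30.4%) and 4 lower (17.4%), and 15 (65.2%) had an adjusted p under 0.05. TRBV20 stood farthest apart, with 9.31% of clonotypes in CD4 and 1.75% in DN T cells, a ratio of 5.33 (Fisher's exact test, unadjusted p = 1e-300). TRBV26 (1.72% in DN, ratio 2.78), TRBV2 (1.52%, ratio 2.72), TRBV4 (4.36%, ratio 1.92) and TRBV5 (6.89%, ratio 1.55) were again higher in CD4. On the lower side were TRBV17, with 3.21% in CD4 and 8.93% in DN T cells (ratio 0.359), TRBV14 (2.64% in DN, ratio 0.510), TRBV13-3 (9.84%, ratio 0.550) and TRBV1 (11.5%, ratio 0.569). TRBV13-1, the leading V gene of DN T cells at 18.4%, had a ratio of 0.678 and did not reach the 1.5-fold mark, and TRBV13-2 did not differ detectably (12.6% and 12.5%, Fisher's exact test, adjusted p = 0.682). Of the genes higher in CD4 than in DN T cells, TRBV12-2 and TRBV30 held less than 1% of clonotypes in both.

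The V gene differences did not rest on large or shared clonotypes. For TRBV2, TRBV20, TRBV26, TRBV4 and TRBV5 the ratio to CD8 T cells was 4.11, 3.55, 2.19, 2.39 and 2.0 by reads, and 4.52, 3.45, 2.46, 2.25 and 2.20 among clonotypes found in no other library. For TRBV14 it was 0.238 by reads and 0.184 among unshared clonotypes, and for TRBV13-3 it was 0.389 and 0.322. The ratio of TRBV20 to DN T cells was 7.76 by reads and 5.97 among unshared clonotypes.

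Sequences that cannot be displayed give a second view of V gene use. In the CD4 library, 13 of 22 V genes differed at least 1.5-fold between nonproductive and in-frame clonotypes (59.1%), 8 more frequent (36.4%) and 5 less frequent (22.7%) among the nonproductive ones, and 19 (86.4%) had an adjusted p under 0.05 in Fisher's exact test. TRBV20 was less frequent there, with 3.54% of nonproductive and 9.80% of in-frame clonotypes, a ratio of 0.361 (Fisher's exact test, adjusted p = 5.09e-42). TRBV26 (ratio 0.428), TRBV29 (0.584), TRBV13-1 (0.630) and TRBV5 (0.632) were the others below the mark. TRBV31, which lies beyond the constant regions in the opposite orientation and joins by inversion, held 18.6% of nonproductive and 8.15% of in-frame clonotypes, a ratio of 2.28 (Fisher's exact test, adjusted p = 5.91e-77), and 16.2% of all TRBV31 clonotypes were nonproductive. The ratios of TRBV20 and TRBV31 went the same way in CD8 (0.432 and 1.84) and in DN T cells (0.650 and 2.19).

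**Figure D2:**
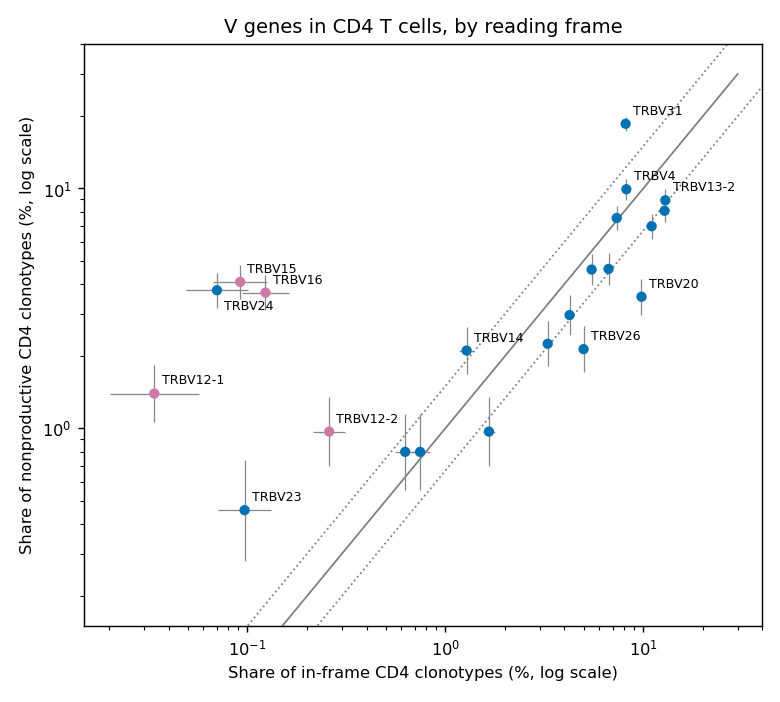
Share of nonproductive (vertical axis) against in-frame (horizontal axis) CD4 clonotypes held by each of the 22 V genes with at least 50 CD4 clonotypes, both in % on log scales, with 95% Wilson intervals. The solid line marks equal shares and the dotted lines 1.5-fold, and pink points are the genes for Vβ5, Vβ11 and Vβ12. TRBV24, TRBV15, TRBV12-1 and TRBV16 lie far above the line, with ratios from 29.8 to 53.6, and TRBV20 lies below it at 0.361.

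The largest excess among nonproductive sequences was in V genes that in-frame CD4 clonotypes hardly used. TRBV24 (Vβ17) held 3.77% of nonproductive and 0.0702% of in-frame clonotypes, a ratio of 53.6. Its ratio was higher in the reference libraries, at 105 in CD8 and 78.2 in DN T cells, from 24 and 20 in-frame clonotypes. TRBV15 (Vβ12) held 4.08% and 0.092%, a ratio of 44.3, TRBV12-1 (Vβ5.2) 1.40% and 0.0339%, a ratio of 41.2, and TRBV16 (Vβ11) 3.68% and 0.123%, a ratio of 29.8. TRBV23 (Vβ20) and TRBV12-2 (Vβ5.1) had ratios of 4.71 and 3.74, and TRBV14 one of 1.65. TRBV24, TRBV15, TRBV12-1 and TRBV16 were thus rearranged and transcribed in CD4 T cells, mostly in forms that could not encode a chain.

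Vβ5, Vβ11 and Vβ12 are known as V regions bound by superantigens of endogenous mammary tumor proviruses, which in mice that express the class II molecule I-E remove the T cells bearing them. The 4 genes TRBV12-1, TRBV12-2, TRBV16 and TRBV15 were therefore taken as a list. Together they held 565 CD4 clonotypes, 1.26% (1.16 to 1.37%), against 1.94% and 1.097% in CD8 and DN T cells. The ratio of CD4 to CD8 was 0.649 (Fisher's exact test, adjusted p = 7.8e-20) and that of CD4 to DN was 1.15 (adjusted p = 0.0256, and 0.083 among clonotypes with at least 2 reads). Among in-frame clonotypes the list held 0.508% in CD4 against 1.61% and 0.377% in CD8 and DN T cells, and among nonproductive clonotypes it held 10.1%, 8.33% and 8.40%. The nonproductive share was 19.9 times the in-frame share in CD4, 5.17 times in CD8 and 22.3 times in DN T cells.

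The members of the list differed between the libraries. TRBV16 made up 1032 of the 1577 CD8 clonotypes of the list. The ratio of CD4 to CD8 was 0.316 for TRBV16 and 0.793 for TRBV12-1 (Fisher's exact test, adjusted p = 1.25e-58 and 0.147). It was 1.745 for TRBV15 and 1.2 for TRBV12-2 (same exact test, adjusted p = 1.66e-07 and 0.119), neither of which was lower in CD4. Among in-frame clonotypes it was 0.254 for TRBV12-1, 0.987 for TRBV15 and 1.0995 for TRBV12-2. TRBV16 in-frame clonotypes were 0.107 times as frequent in CD4 as in CD8 T cells, whereas nonproductive TRBV16 clonotypes had a ratio of 1.02 (Fisher's exact test, adjusted p = 0.913). Its excess of nonproductive over in-frame clonotypes was 29.8 in CD4 against 3.13 and 9.40 in CD8 and DN T cells. TRBV15 had a similar excess in all libraries, with ratios of 44.3, 31.3 and 41.9. TRBV12-2 was the exception, with a ratio of 3.74 in CD4 against 3.31 and 26.2 in CD8 and DN T cells, and its in-frame share was 5.21 times as high in CD4 as in DN T cells.

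The nonproductive and the in-frame clonotypes were also compared between the libraries separately. With nonproductive clonotypes alone, 9 of 23 V genes differed at least 1.5-fold between CD4 and CD8 T cells (39.1%) and 4 between CD4 and DN T cells (17.4%), and with in-frame clonotypes alone 14 (60.9%) and 13 (56.5%) did. The calls are by fold alone, and the difference between the numbers of calls was not tested. For TRBV4 the ratio of CD4 to CD8 was 2.24 in-frame and 1.08 nonproductive (Fisher's exact test, adjusted p = 0.387), and for TRBV2 it was 4.26 and 2.07. For TRBV20 it was 3.30 and 2.75 (same exact test, adjusted p = 2.25e-09), so that the difference was present in sequences that are not displayed as well. For TRBV1 the ratios were 0.581 and 0.592.

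The J genes of the CD4 library were used in the order TRBJ2-7 (17.5% of clonotypes), TRBJ2-1 (12.6%), TRBJ2-5 (12%), TRBJ1-1 (9.79%), TRBJ2-3 (8.82%), TRBJ2-4 (8.03%), TRBJ1-4 (7.65%), TRBJ1-2 (6.11%), TRBJ1-3 (5.93%), TRBJ2-2 (5.03%), TRBJ1-6 (3.62%) and TRBJ1-5 (2.94%). No CD4 clonotype used TRBJ2-6. Each cluster of J genes lies downstream of its own D segment, with its constant region beyond it. TRBD1 can therefore join to either cluster but TRBD2 only to TRBJ2 by deletion. None of 12 J genes differed 1.5-fold between CD4 and CD8 T cells (0% called at that fold), although 9 (75%) had an adjusted p under 0.05. Between CD4 and DN T cells 2 of 12 did (16.7%), TRBJ1-2 (6.11% against 3.83%, ratio 1.59) and TRBJ1-3 (5.93% against 3.82%, ratio 1.55), both higher in CD4, and 11 (91.7%) had an adjusted p under 0.05.

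The small J gene differences added up by cluster. TRBJ1 genes held 36.0% of CD4 clonotypes (35.6 to 36.5%), 30.4% of CD8 and 29.2% of DN clonotypes, with ratios of 1.18 to CD8 (Fisher's exact test, adjusted p = 1.22e-91) and 1.23 to DN T cells (adjusted p = 9.97e-101). By reads the shares were 32.6%, 29.9% and 24.98%. TRBJ1-6 was the member of the cluster that did not follow, with ratios of 1.03 to CD8 (Fisher's exact test, adjusted p = 0.289) and 0.914 to DN T cells, and TRBJ2-7, the most used J gene, had ratios of 0.825 and 0.749. In-frame CD4 clonotypes used TRBJ1 more often than nonproductive ones, 36.6% against 29.9%. Between nonproductive and in-frame CD4 clonotypes none of the 12 J genes differed 1.5-fold, and 4 (33.3%) had an adjusted p under 0.05.

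A D segment could be assigned in most clonotypes. TRBD1 was named in 44.3% of CD4 clonotypes, TRBD2 in 29.5% and none in 26.2%. TRBD2 was named in 32.7% of CD8 and 40.01% of DN clonotypes, so that the ratio of CD4 to DN was 0.738 (Fisher's exact test, adjusted p = 4.58e-230). Of the CD4 clonotypes with TRBD1, 49.8% used a TRBJ1 gene, against 6.85% (6.43 to 7.29%) of those with TRBD2. The latter, 906 of 13231, are joins that deletion cannot make, and the sequence of the D segments is short enough for a wrong assignment. Whether these were wrongly assigned was not tested. The share was 4.84% among CD8 and 4.68% among DN clonotypes.

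The CD4 library held 285 V-J pairs. The 5 with the most clonotypes were TRBV13-2 with TRBJ2-7 (1099 clonotypes, 2.45%), TRBV13-1 with TRBJ2-7 (977), TRBV5 with TRBJ2-7 (865), TRBV13-2 with TRBJ2-1 (802) and TRBV20 with TRBJ2-7 (733), so that the leading pairs joined leading V genes to leading J genes. To separate pairing from use, each pair was divided by the number that the product of its V and J shares gives. Over the 89 pairs with at least 200 clonotypes by that product, the quotient had a median of 0.998 and ran from 0.621 to 1.33, and 52 pairs were within 10% of 1.

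**Figure D3:**
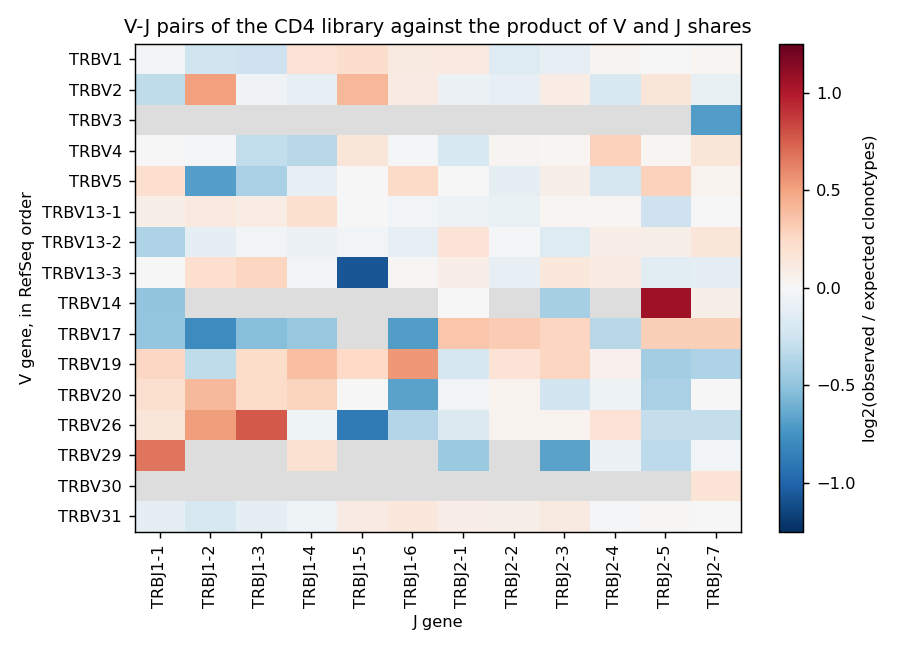
Observed over expected clonotypes (log2) of V-J pairs in the CD4 library, with the product of V and J shares as the expected number. Rows are V genes in the order of the RefSeq gene list, columns are J genes, red is more and blue fewer than expected, and grey pairs have fewer than 50 expected clonotypes. Most pairs are pale, TRBV20 with TRBJ1-2 is red (quotient 1.33) and TRBV5 with TRBJ1-2 is blue (0.621).

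Among these 89 pairs, those farthest from the product were TRBV20 with TRBJ1-2 (338 clonotypes, quotient 1.33), TRBV19 with TRBJ1-4 (1.3) and TRBV17 with TRBJ2-7 (1.23) on the high side. On the low side were TRBV5 with TRBJ1-2 (182 clonotypes, 0.621), TRBV19 with TRBJ2-5 (0.738) and TRBV5 with TRBJ1-3 (0.753). Pairs with a smaller expected number lay farther out, such as TRBV14 with TRBJ2-5 (151 clonotypes, 72.4 expected, 2.08), TRBV26 with TRBJ1-3 (216 and 127, 1.70) and TRBV13-3 with TRBJ1-5 (34 and 71.4, 0.476), which were picked after their values were seen. The quotient of TRBV5 with TRBJ1-2 was 0.543 in CD8 and 0.641 in DN T cells, and that of TRBV20 with TRBJ1-2 was 2.22 and 1.57.

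The V gene set the direction of most pairs between the libraries. Between CD4 and CD8 T cells 141 of 193 pairs differed at least 1.5-fold (73.1%), and between CD4 and DN T cells 111 of 173 did (64.2%). All 12 pairs of TRBV20 were at least 1.5-fold higher in CD4 than in CD8 T cells, with ratios from 2.0 to 5.16, and so were all 12 of TRBV2, from 3.03 to 7.73, and all 12 of TRBV4, TRBV5 and TRBV26. All 12 pairs of TRBV14 and of TRBV13-3 were at least 1.5-fold lower, from 0.121 to 0.358 and from 0.275 to 0.506. Among pairs with at least 200 clonotypes in both libraries together, the ratio to CD8 was highest for TRBV2 with TRBJ1-2 (7.73, 162 CD4 and 38 CD8 clonotypes), TRBV20 with TRBJ1-4 (5.16) and TRBV2 with TRBJ2-3 (4.96), and lowest for TRBV14 with TRBJ2-4 (0.121, 24 and 360 clonotypes), TRBJ1-4 (0.15) and TRBJ2-7 (0.171). The ratio to DN was highest for TRBV20 with TRBJ2-2 (8.79, 216 and 23 clonotypes), TRBJ1-3 (8.73) and TRBJ2-4 (7.91), and lowest for TRBV17 with TRBJ2-7 (0.285, 308 and 1012 clonotypes), TRBJ1-1 (0.304) and TRBJ2-1 (0.334).

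The CDR3 of in-frame CD4 clonotypes, counted from the conserved cysteine to the phenylalanine of the J gene, had a mean length of 13.9 residues (SD 1.49 over 41301 clonotypes). A length of 14 was the most frequent at 28.6%, and 72.2% of clonotypes had 13 to 15 residues. The mean was also 13.9 in CD8 (SD 1.52), with a difference of less than 0.018 residues in either direction by its 95% interval (-0.0179 to 0.0179), although among clonotypes with at least 2 reads CD4 was longer by 0.0470 (0.0173 to 0.0766). The mean was 14.2 in DN T cells (SD 1.51), 0.297 residues longer than in CD4 (interval of CD4 minus DN -0.318 to -0.276). By clonotypes the distribution was nevertheless narrower in CD4 than in CD8 T cells, with 5.10% against 6.03% of clonotypes at 11 residues or fewer and 2.84% against 3.16% at 17 or more (Fisher's exact test, adjusted p = 5.47e-11 and 0.00262). In DN T cells 4.40% were at 11 or fewer and 4.78% at 17 or more. By in-frame reads the long end went the other way, with 2.57% in CD4 against 2.30% in CD8 at 17 residues, while 11 residues held 3.62% against 4.67%.

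**Figure D4:**
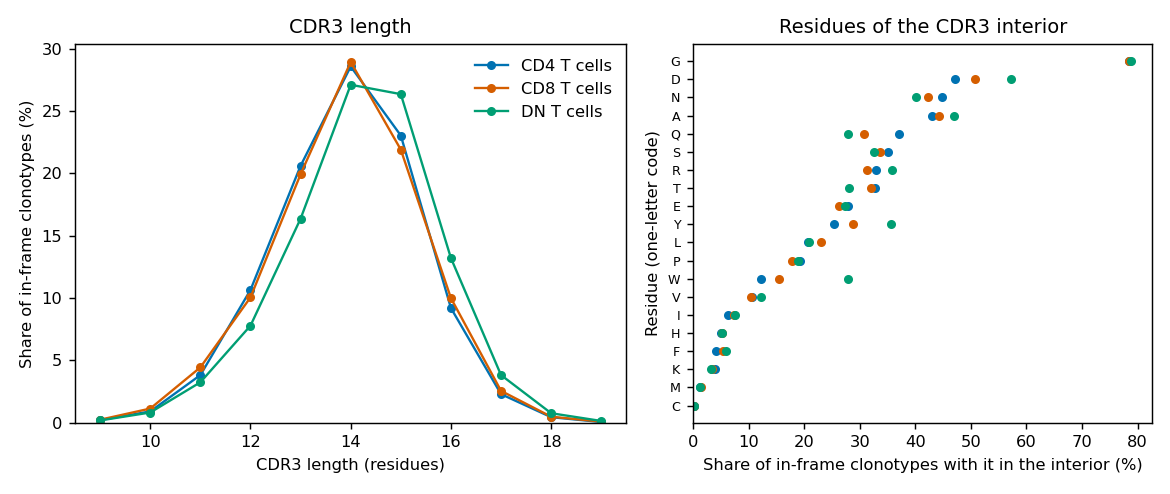
Left, share of in-frame clonotypes (%) at each CDR3 length from 9 to 19 residues, and right, share of in-frame clonotypes (%) with each residue in the CDR3 interior, for the CD4, CD8 and DN libraries. The CD4 and CD8 curves run together with a mean of 13.9 residues and the DN curve lies to the right at 14.2, and tryptophan (W) separates the libraries at 12.3%, 15.5% and 27.8%.

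The length differed among V genes of the CD4 library, with means of 13.2 residues for TRBV20, 13.7 for TRBV31, TRBV26 and TRBV4, and 14.5 for TRBV2 and TRBV5. Junction bases, which the V and J ends do not account for, averaged 10.2 (SD 4.54) in CD4 against 9.98 and 10.9 in CD8 and DN T cells. A junction of 0 bases was found in 198 CD4 clonotypes (0.479%).

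The interior of the CDR3, taken as all but the first 4 and last 4 residues, differed in composition. Tryptophan, the bulkiest aromatic residue, was present in the interior of 12.3% of in-frame CD4 clonotypes, 15.5% of CD8 and 27.8% of DN clonotypes (ratios 0.793 and 0.441, Fisher's exact test, adjusted p = 4.47e-51 and 4e-299). Tyrosine was present in 25.3%, 28.8% and 35.6%, and phenylalanine in 4.16%, 5.34% and 5.96%, so that the 3 aromatic residues were all least frequent in CD4. The ends of TRBJ2-7 and TRBJ2-1 can place a tyrosine in the interior, and the use of both genes had the same order. TRBJ2-7 held 17.5%, 21.2% and 23.3% of clonotypes and TRBJ2-1 12.6%, 14.1% and 16.0%. Tyrosine was not counted within J genes, so the part of J use in its difference was not tested. The acidic residue aspartate was present in 47.2%, 50.7% and 57.2%, whereas glutamate, also acidic, was present in 27.9%, 26.3% and 27.4% (Fisher's exact test, adjusted p = 1.85e-08 against CD8 and 0.162 against DN). Glutamine was higher in CD4, with 37.0% in CD4 against 30.8% and 28.0% in CD8 and DN T cells (ratios 1.2 and 1.32, Fisher's exact test, adjusted p = 4.54e-103 and 1.55e-163), and the basic residue lysine was present in 3.85%, 3.32% and 3.16%. Arginine, also basic, was present in 32.9%, 31.4% and 35.8%, higher in CD4 than in CD8 but lower than in DN T cells (Fisher's exact test, adjusted p = 1.9e-07 and 1.72e-17). By presence, glycine, the most frequent residue, did not separate the libraries (78.4%, 78.4% and 78.8%, Fisher's exact test, adjusted p = 0.941 and 0.274). The share of all interior residues that were glycine was 1.07 times as high in CD4 as in DN T cells. Its ratio of CD4 to CD8 was 0.999. For glutamate the ratios of that share were 1.05 to CD8 and 1.06 to DN T cells. Shares of interior residues were not tested.

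With the charge of each interior taken as arginine and lysine minus aspartate and glutamate, the mean was -0.450 in CD4 against -0.515 and -0.575 in CD8 and DN T cells. The difference was 0.0656 to CD8 (95% interval 0.0544 to 0.0768) and 0.126 to DN T cells (0.112 to 0.139), both less negative in CD4. A negative interior was found in 46.0% of CD4, 48.5% of CD8 and 51.5% of DN clonotypes. The size depended on the definition, with 0.15 and 0.247 when 3 residues were trimmed from each end, and 0.114 to CD8 with the V-J makeup of CD4. By reads the difference to CD8 was 0.0217, with an interval of -0.0407 to 0.0841 that includes 0.

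Tryptophan, aspartate and glutamine were also counted within V genes. Among the 12 V genes compared, in CDR3s of at least 11 residues, the share with tryptophan was lower in CD4 than in DN T cells in 12 and lower than in CD8 T cells in 11, the exception being TRBV1 (12.6% in CD4 and 12.2% in CD8). In TRBV4 it was 17.2% in CD4 against 34.5% and 41.9% in CD8 and DN T cells, and in TRBV26 it was 6.67%, 12.2% and 20.5%. The share with aspartate was lower than in DN in 12 and lower than in CD8 in 10. The share with glutamine was higher than in DN in 12 of 12 but higher than in CD8 in 8. V genes that end in a glutamine codon contribute to the overall share, since 76.9% of TRBV5 and 86.0% of TRBV2 CD4 clonotypes had glutamine in the interior.

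The D segment can be read in 3 frames, and the frames were counted by their residues in the CDR3, a count made after the residue values were seen and given without a test. In CD4 clonotypes with TRBD2, the aspartate-tryptophan-glycine frame was present in 16.3% (15.66 to 16.99%), against 20.5% and 31.1% in CD8 and DN T cells. The glycine-leucine-glycine frame was present in 9.69%, 10.7% and 8.37%, and the glycine-threonine-glycine frame in 7.57%, 7.90% and 4.88%. In clonotypes with TRBD1 the frames lay closer together, with 8.32%, 10.1% and 7.66% for glycine-threonine-glycine, 7.84%, 8.19% and 10.2% for aspartate-arginine-glycine and 7.98%, 7.85% and 6.23% for glycine-glutamine-glycine. Of the largest clonotypes printed above, the one of TRBV13-2 with TRBJ2-1 and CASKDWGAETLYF carry the aspartate-tryptophan-glycine frame in the capitals GGACTGGGG.

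Glutamine was also examined by position, after the values above were known. Positions were counted from the cysteine as 1, in CDR3s of at least 11 residues. Of positions 4 to 9, the gap was widest at position 5, where 12.97% of CD4, 6.11% of CD8 and 7.12% of DN clonotypes had glutamine. At positions 7 and 9 the CD4 share was above that of DN but below that of CD8 (5.55% against 5.92%, and 7.32% against 8.09%). At position 6 glutamine was present in 6.30% of CD4, 4.06% of CD8 and 2.78% of DN clonotypes. TRBV26 had the widest gap, with 15.2%, 3.17% and 3.598%. Across the 12 V genes the CD4 share was higher than the DN share in 12 and higher than the CD8 share in 11, TRBV31 being the exception (4.94% and 5.11%).

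The first 6 residues of the CDR3 were then searched within each V gene. Of 122 starts with at least 60 in-frame CD4 clonotypes, 9 had a share of their V gene at least 2-fold higher in CD4 than in both other libraries. In the other direction, 1 start was past 2-fold, CASSDD in TRBV13-1, with ratios of 0.494 to CD8 and 0.459 to DN T cells. Starts were admitted by their CD4 clonotypes alone, so those rare in CD4 but common in the other libraries could not be found. The 9 higher starts were chosen for their difference, so no test is given. Those with glutamine as the sixth residue restate the values at position 6, which were known before the search. Not every start with glutamine there was past 2-fold, such as CGARGQ in TRBV20 (ratios 1.79 and 1.79) and CASGGQ in TRBV13-2 (1.23 and 1.81). In TRBV26, CASSRQ had 71 CD4, 7 CD8 and 3 DN clonotypes (3.44%, 0.434% and 0.438% of the gene), CASSLQ had 112, 13 and 6, and CASSPQ 62, 13 and 5. In TRBV4, CASSLQ had 80, 14 and 5 clonotypes and CASSRQ 80, 14 and 6. The others were CASSLP in TRBV26 (195, 26 and 23), CASSQT in TRBV5 (191, 64 and 39), CASSLR in TRBV4 (71, 25 and 14) and CAWSRG in TRBV31 (175, 130 and 35).

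CAWSRG stood apart by its length. Of the 231 in-frame TRBV31 CD4 clonotypes with 11 residues, 100 (43.3%) began with CAWSRG, against 9 of 481 in CD8 (1.87%) and 5 of 122 in DN T cells (4.10%). These 100 were 2.97% (2.45 to 3.601%) of TRBV31 in-frame CD4 clonotypes, while the 9 in CD8 were 0.105% and the 5 in DN T cells 0.187%. They encoded 36 amino acid sequences with 11 of the 12 J genes and held 411 reads, and the largest had 26 reads, so no single clone made up the group. Among clonotypes with at least 2 reads there were 65 in CD4 against 1 and 2 in CD8 and DN T cells, and after clonotypes within 1 mismatch of a much larger one were merged there were 96, 9 and 5.

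The nucleotide sequences with the most reads behind the most convergent of these, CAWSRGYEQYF (TRBV31 with TRBJ2-7), are printed because they show how different junction bases encoded the same residues. Capitals mark the junction bases, as above, and the reads are those in the CD4 library.

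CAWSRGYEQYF with 23 reads: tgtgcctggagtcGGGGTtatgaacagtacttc
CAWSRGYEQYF with 16 reads: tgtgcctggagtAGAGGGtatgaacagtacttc
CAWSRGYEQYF with 15 reads: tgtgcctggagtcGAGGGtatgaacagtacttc
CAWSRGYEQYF with 7 reads: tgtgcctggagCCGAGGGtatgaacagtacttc

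One amino acid CDR3 can be encoded by several nucleotide sequences, from separate joins or from PCR and read errors, and these were not told apart. The 41301 in-frame CD4 clonotypes encoded 37519 amino acid CDR3s, of which 2908 (7.75%) were made by more than 1 nucleotide sequence and 608 by 3 or more. The share was 10.8% in the CD8 library, which holds more clonotypes, and 7.20% in the DN library. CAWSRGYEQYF was made by 13 nucleotide sequences in CD4, the most of any, against 5 in CD8 and 3 in DN T cells. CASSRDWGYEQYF was made by 9 (13 in CD8 and 7 in DN), using 5 V genes, and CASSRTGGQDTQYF by 9 (8 and 2), using 7 V genes. A CDR3 of 14 residues that begins with CTCSADWGG was made by 8 (5 and 5), and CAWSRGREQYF by 8, none of which was found in CD8 or DN T cells. CDR3s made by 3 or more sequences had a mean length of 13.4 residues (SD 1.24), against 14.0 (SD 1.51) for those made by 1.

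The CD4 library was made up mostly of small clonotypes. There were 27806 clonotypes with 1 read (62.1% of clonotypes, 20.8% of reads), 15170 with 2 to 9 reads (33.9% and 36.7%), 1746 with 10 to 99 reads (3.90% and 29.3%) and 85 with 100 or more reads (0.190% and 13.1%). Clonotypes with 10 or more reads thus held 42.5% of reads in CD4 T cells, against 18.3% in CD8 and 62.0% in DN T cells. At the depth of the CD4 library the CD8 library was computed to hold 74624 clonotypes and the DN library 33708, against 44807 in CD4. The 25% of reads in the largest clonotypes were held by 381 clonotypes in CD4, against 2411 and 202 in CD8 and DN T cells. Measures of evenness differed in the order they gave. The inverse Simpson index, the number of equally large clonotypes that would give the same chance of drawing the same clonotype again, was 2083 in CD4, 1730 in CD8 and 1535 in the DN library, so that CD4 was the highest by an index that the largest clonotypes dominate. The largest CD8 clonotype had 3260 reads, more than the 1484 of the largest in CD4.

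**Figure D5:**
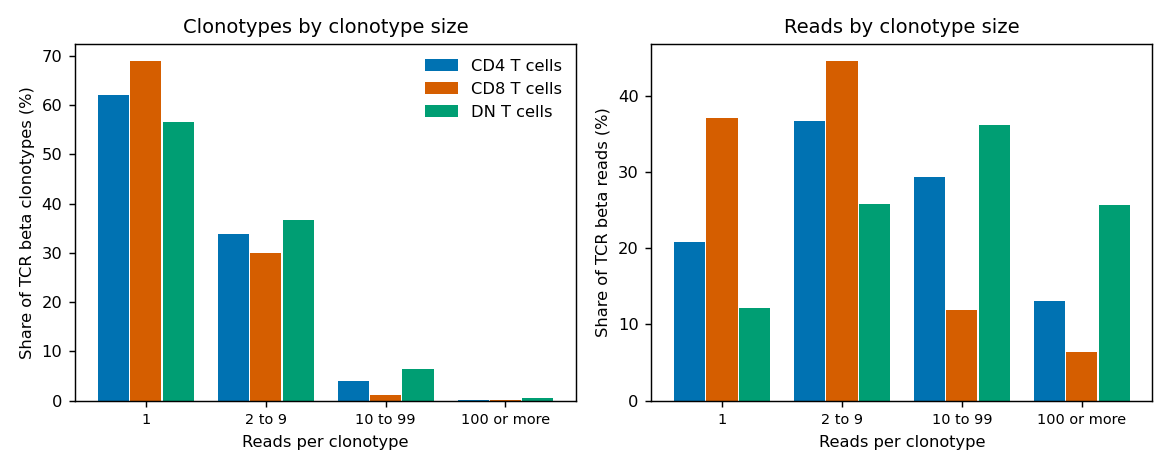
Share of TCR beta clonotypes (left, %) and of TCR beta reads (right, %) in clonotypes of 1, 2 to 9, 10 to 99 and 100 or more reads, for the CD4, CD8 and DN libraries (1 library each). In CD4 T cells 62.1% of clonotypes had 1 read and held 20.8% of reads, and the 0.190% with 100 or more reads held 13.1%, between the 6.45% of CD8 and the 25.7% of DN T cells.

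Large clonotypes, taken as those with at least 0.1% of the reads of their library, numbered 55 in CD4 against 17 and 79 in CD8 and DN T cells. They held 10.5% (10.3 to 10.6%), 4.94% and 16.2% of reads. The ratio of CD4 to CD8 was 2.12 and that of CD4 to DN was 0.644 (Fisher's exact test on reads, two-sided, p = 1e-300 for both, the smallest value given here, which treats every read as independent). Both ratios depended on a few or on shared clonotypes. In both settings below, the 0.1% limit and the shares were taken over the reads that remained. After removal of the 10 largest clonotypes from each, the ratio to CD8 was 5.96. Among clonotypes found in no other library the ratio to DN was 7.67, where large CD4 clonotypes held 0.867% of the remaining reads. This ratio rests on few clonotypes. Of those with 100 or more reads, 5 of 85 in CD4 and 0 of 215 in DN T cells were found in no other library.

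The makeup of the CD4 library changed with clonotype size. TRBJ1 genes were used by 36.2% of clonotypes with 1 read, 36.0% with 2 to 9, 34.0% with 10 to 99 and 21.2% of the 85 with 100 or more reads, and TRBV13-1 was used by 12.1%, 12.9%, 14.0% and 20%. TRBV2 went the other way, from 4.32% to 2.35%. The reference libraries showed the same directions between clonotypes with 1 read and those with 100 or more, of which there were 35 in CD8 and 215 in DN T cells. TRBJ1 went from 31.1% to 22.9% in CD8 and from 29.9% to 22.3% in DN T cells. TRBV13-1 went from 8.76% to 17.1% and from 17.9% to 19.5%, and TRBV2 from 1.14% to 0% and from 1.68% to 0.465%. These directions were therefore not seen in CD4 T cells alone. They rest on few clonotypes of 100 or more reads, above all for TRBV2 and in CD8 T cells, and were not tested. The share also found in another library rose with size, from 9.89% of clonotypes with 1 read to 14.99%, 35.0% and 94.1%. Detection in a second library depends on the reads a clonotype has, so this rise describes reads as well as sharing.

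Most large clonotypes of every library were found in another. Of the 100 largest CD4 clonotypes, 82 were found in the CD8 library and 63 in the DN library. They were chosen for their size in CD4, so their lower share elsewhere, with a median of 1.45% of the CD4 share in CD8 and 0.486% in DN T cells when those not found count as 0, is a description. In the other direction, 91.4% of the CD8 and 95.3% of the DN clonotypes with 100 or more reads were found in the CD4 library, against 83.5% and 64.7% of the CD4 clonotypes of that size found in the CD8 and the DN library. Whether these reads came from cells of the other subset or from the sort or the sequencing was not tested. CD4 clonotypes found in both other libraries numbered 1937. Clonotypes also found in CD8 but not in DN T cells had a mean CDR3 length of 13.5 residues (SD 1.44), those also found in DN but not in CD8 T cells 14.0 (SD 1.57) and those found in neither 13.9 (SD 1.48).

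Only 6 of the 100 largest CD4 clonotypes were found in neither other library. The 5 with the most reads were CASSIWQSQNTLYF (TRBV19 with TRBJ2-4, 158 reads, 0.118%), a CDR3 of 14 residues (TRBV13-3 with TRBJ2-5, 146 reads), one of 17 residues (TRBV5 with TRBJ2-5, 131 reads), one of 16 residues (TRBV5 with TRBJ2-4, 126 reads) and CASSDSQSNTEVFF (TRBV13-1 with TRBJ1-1, 108 reads). For the first, with the other libraries at their floor of 3 reads, the share in CD4 was at least 59.4-fold higher than in CD8 and at least 76.6-fold higher than in DN T cells. The first clonotype was chosen for its CD4 reads and its absence elsewhere, so these folds are a description. Its nucleotide sequence and that of the next are shown as examples of clonotypes that were read in CD4 T cells alone.

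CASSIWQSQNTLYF: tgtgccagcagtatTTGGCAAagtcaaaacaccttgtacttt
TRBV13-3 with TRBJ2-5: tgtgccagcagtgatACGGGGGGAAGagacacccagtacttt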

How the data were processed

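The mRNA of each sorted subset was profiled once. Reads were aligned and assembled into clonotypes by the authors using MiXCR, whose version, settings and genome build are not given in the sources used here, and deposited 1 table per library. In it the authors give each clonotype a count of reads, which is not normalized, and a fraction, which is that count over the total of the table, beside the CDR3 sequence and the best hit for each of the V, D and J genes. The count was used throughout.

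Alleles were removed from gene names. Shares were computed over TCR beta clonotypes, without a filter on reads (133667 CD4 reads). Features with at least 50 clonotypes in both libraries together were compared by ratio (1.5-fold) and by a two-sided Fisher's exact test with Benjamini-Hochberg adjustment over the features of a kind and both comparisons, and p-values below 1e-300 were set to 1e-300. V and J ends were taken as the bases that at least 50% of the clonotypes of a gene share. Numbers of clonotypes at equal depth were computed from the hypergeometric distribution. V genes were named if among the 5 largest, if at least 1% of clonotypes in either library and 1.5-fold different, or if on the superantigen list. All J genes were named, as were the extreme pairs and the largest clonotypes, those found in CD4 T cells alone and the most convergent ones. The members and lists were chosen with earlier results of these data known, and features picked after their values were seen are marked as such and have no test. Gene order and older names came from the RefSeq gene list of GRCm38.p6. The alternatives were a minimum of 2 reads, merging of clonotypes 1 mismatch apart, unshared clonotypes, removal of the 10 largest, weighting by reads, reading frame, equal depth, amino acid clonotypes, a 0.05% limit for large clonotypes, a 3-residue trim and, added after seeing the data, the same V-J makeup. The scripts were tested on simulated data. The work used Python 3.11.15 with pandas 2.3.3, SciPy 1.17.1, NumPy 2.4.6 and, for figures, matplotlib 3.10.9.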

Additional observations from a re-analysis of the deposited data

Results flagged for a closer look

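The kit copies both chains, but TCR alpha was nearly absent from the CD4 library and enters no comparison above. It held 101 reads (0.0755% of the reads of the library) in 82 clonotypes with 41 V genes, above the floor of 3 counts. Of these clonotypes, 76 had 1 read, and the largest had 15.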

How the results depend on the processing

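Over 17 comparisons and 122 alternatives, 107 kept both the direction and the call or, for a count, stayed within 1.5 times the value reported and, for a difference of means, within its 95% interval. Counts within that tolerance still moved, as by reads from 13 to 19 V genes between nonproductive and in-frame clonotypes and from 111 to 154 V-J pairs against DN T cells. The reads in large clonotypes went from 0.644 times the DN share to 7.67 times among clonotypes found in no other library. There the limit is taken over the remaining reads, and the large shared DN clonotypes are left out. The ratio to CD8 could not be computed in that setting, since the CD8 library held no such clonotype. The superantigen list, 1.15 times as frequent in CD4 as in DN T cells (adjusted p = 0.0256 in Fisher's exact test), was no longer past the threshold at a minimum of 2 reads (1.2, adjusted p = 0.083) or among unshared clonotypes (1.12, adjusted p = 0.0869). The difference in mean CDR3 length between CD4 and CD8, -1.06e-05 residues, was 0.0470 at a minimum of 2 reads and 0.0563 by reads. That to DN, -0.297, was -0.350 at a minimum of 2 reads, -0.324 among unshared clonotypes, -0.353 by reads and -0.234 with the V-J makeup of CD4, the last added after seeing the data. The difference in charge to CD8, 0.0656, was 0.0217 by reads, 0.15 with 3 residues trimmed and 0.114 with the V-J makeup of CD4. That to DN, 0.126, was 0.139 among unshared clonotypes, 0.105 by reads and 0.247 with 3 residues trimmed. The causes were not tested. No paired analysis was possible because each subset had 1 library of the same mouse and the labels give no replicate numbers. With 1 mouse, no difference can be assigned to the strain, and the many clonotypes with 1 read limit what can be said of rare ones.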
